A study of Mus musculus with 2 samples.

Results

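Patrolling monocytes low in Ly6c2 were followed in 2 scRNAseq libraries of live CD45+ cells sorted from subcutaneous B16 tumors, a melanoma line of C57BL/6 mice. A cell was counted as a patrolling monocyte when it held at least 2 UMIs (unique molecular identifiers, 1 for each captured RNA molecule) of Csf1r, a sum of at least 1 UMI of Ear2, Ace and Treml4, at most 1 UMI of Ly6c2, at most 1 UMI of Spp1 and 0 UMIs of C1qa, C1qb, Arg1, Cd3e and Cd79a. The rule found 115 of 13040 cells that had at least 500 UMIs and 200 genes and under 10% mitochondrial UMIs. Of these, 49 came from mice treated with h219-LLG, an antibody against human LAIR1 with a silenced Fc part, and 66 from mice treated with the isotype control antibody. All mice were Vav-cre human LAIR1 transgenic on a mouse LAIR1-/- background, 6 to 8 weeks old, so that human LAIR1 was expressed on hematopoietic lineages under Vav-driven Cre and both groups lacked mouse LAIR1. With 1 library for each antibody, the antibody and the library cannot be told apart, no p-value was computed, and the 95% intervals given cover counting error only. The number of mice pooled in a library was not given in the sources used here.

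Patrolling, or nonclassical, monocytes crawl along the inner wall of small blood vessels and clear cell debris from it. In the mouse they arise largely from classical monocytes, which are high in Ly6c2 and Ccr2 and leave the blood for inflamed tissue, and they depend on the nuclear receptor Nr4a1 and on signaling through Csf1r, the receptor of the growth factor CSF1. Ear2 is an RNase of the eosinophil-associated family, Ace is angiotensin-converting enzyme, and Treml4 is an immunoglobulin-like receptor of the TREM family.

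The libraries held 8807 deposited barcodes with h219-LLG and 6133 in control, with medians of 4434 and 5469 UMIs, and 7433 and 5607 barcodes were kept. The 2 libraries shared 13 barcode sequences, 9 of them among kept cells and 0 among patrolling monocytes. Patrolling monocytes held a median of 7211 UMIs with h219-LLG and 9295 in control, with medians of 2286 and 2535 genes and of 2.99% and 2.65% mitochondrial UMIs. Human LAIR1 was not in the gene list used by the authors. Mouse Lair1 gave 44 and 122 UMIs in the patrolling monocytes despite the LAIR1-/- label, but which part of the gene is deleted was not given, so a 3' tag does not check the deletion.

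Promoters of 3 of the marker genes that the rule did not use are shown because Adgre4, Cd300e and Spn had the highest ratios of patrolling over classical monocytes among the 9 such markers. Each is the 250 bases before the RefSeq start on GRCm38.p6, written 5′ to 3′ along the gene's strand, with capitals for GGAAGT on either strand, a core bound by ETS factors such as PU.1, the factor that myeloid cells depend on. The Adgre4 window was chr17:55749734-55749983 on the plus strand, the Cd300e window chr11:115062040-115062289 on the minus strand and the Spn window chr7:127137824-127138073 on the minus strand.
Adgre4: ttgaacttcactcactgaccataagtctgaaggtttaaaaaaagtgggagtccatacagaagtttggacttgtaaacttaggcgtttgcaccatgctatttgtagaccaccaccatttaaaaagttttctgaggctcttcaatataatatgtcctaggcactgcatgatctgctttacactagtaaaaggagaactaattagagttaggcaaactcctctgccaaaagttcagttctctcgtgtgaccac
Cd300e: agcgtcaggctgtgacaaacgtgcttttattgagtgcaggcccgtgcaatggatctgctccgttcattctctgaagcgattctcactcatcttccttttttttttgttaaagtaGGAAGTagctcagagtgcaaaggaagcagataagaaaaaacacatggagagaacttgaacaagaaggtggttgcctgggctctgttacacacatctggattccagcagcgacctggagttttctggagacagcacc
Spn: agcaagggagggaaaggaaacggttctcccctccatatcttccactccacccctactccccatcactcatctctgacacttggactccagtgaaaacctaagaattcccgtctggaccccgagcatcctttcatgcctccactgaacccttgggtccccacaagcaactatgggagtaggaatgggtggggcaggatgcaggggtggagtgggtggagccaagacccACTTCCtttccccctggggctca
GGAAGT was found in the Cd300e window, starting 136 bases before the start site, and in reverse in the Spn window, 23 bases before it, and was not in the Adgre4 window. Among all 32851 windows of this length 19.7% held it, and a gene was counted when any of its windows did. It was in 39 of the 146 genes with a window (26.7%) that were at least 2-fold higher in patrolling than in classical monocytes, in 44 of 145 genes (30.3%) that were at least 2-fold lower and in 30.0% of the 3872 genes measured that had a window. Of the 20 genes with a window in a list of the patrolling program outside the rule, from which the windows shown come, 9 (45%) held it. The NBRE, AAAGGTCA, to which Nr4a1 binds, was in 0 of the 146 and 0 of the 145 genes. It was in 1.11% of the genes measured that had a window and in 1.34% of all windows. CACCC, bound by KLF factors, was in 63.7% and 64.8% of the higher and lower genes and 60.8% of the genes measured, and TTGCNNAA, a C/EBP core, in 13.7%, 10.3% and 9.53%. In the list of the patrolling program CACCC was in 14 of 20 genes, TTGCNNAA in 1 and the NBRE in 0. These are matches of letters on both strands and not binding sites.

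The label was checked against 9 markers that the rule did not use: Nr4a1, Cx3cr1, the fractalkine receptor, Spn (CD43), the integrin chain Itgal, the transcription factor Pou2f2, the adhesion receptors Adgre4 and Ceacam1, the activating receptor Cd300e and the Fc receptor Fcgr4. The median patrolling monocyte held 7 of the 9 in each library. At least 4 of the 9 were found in 47 of 49 cells with h219-LLG and 57 of 66 in control, and 2 and 9 cells held 3 or fewer. When each cell was thinned to 2000 UMIs, which left 47 and 65 patrolling monocytes, Itgal was found in 72.3% with h219-LLG and 60.0% in control, against 25.3% and 21.1% of classical monocytes and 8.27% and 8.91% of B cells. Adgre4 was found in 61.7% and 33.8% of patrolling monocytes, against 3.45% and 0% of classical monocytes and 0% and 0.214% of B cells. Pou2f2 and Nr4a1 were less selective, with a UMI in 48.9% and 28.6% of thinned B cells with h219-LLG. Without thinning Adgre4 was found in 87.8% and 66.7% of patrolling monocytes, whose median depths were given above, and in 0% and 0.213% of B cells, with medians of 3621 and 4355 UMIs.

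**Figure D1:**
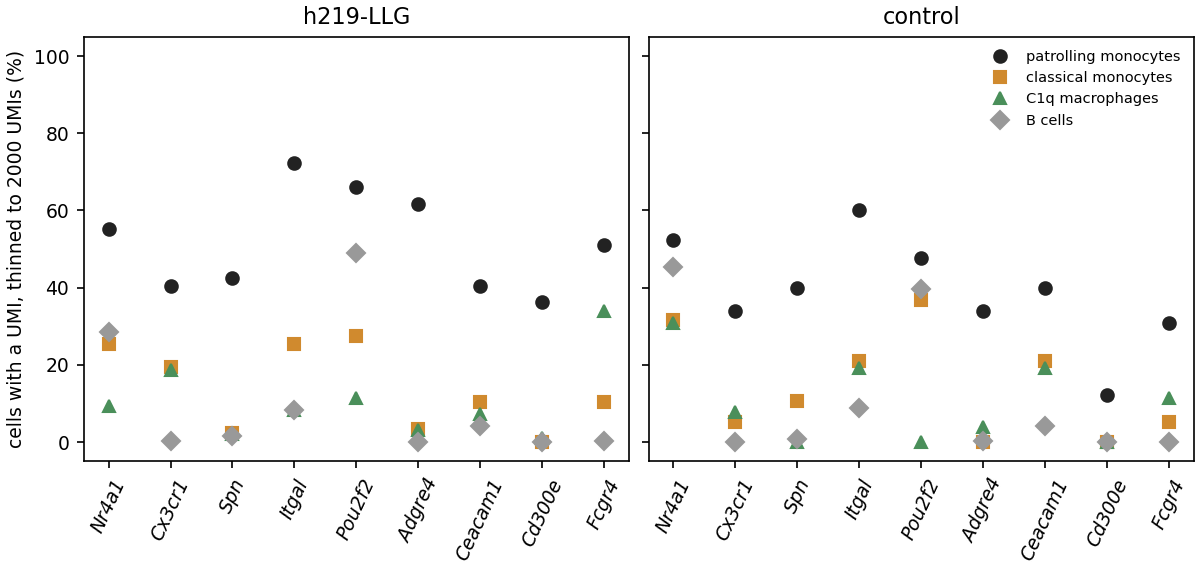
Share of cells (%) with at least 1 UMI of each of the 9 markers outside the rule, after thinning each cell to 2000 UMIs, in patrolling monocytes (circles), classical monocytes (squares), C1q macrophages (triangles) and B cells (diamonds), with the 2 libraries in separate panels. Patrolling monocytes lay above the other classes for all 9 markers in both libraries, and in control by the least for Nr4a1 and Pou2f2, which B cells also held.

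Cells lay on both sides of each limit of the rule. Csf1r stood at exactly 2 UMIs in 6 members with h219-LLG and 7 in control, and 6 and 6 further cells missed the rule with exactly 1. Ly6c2 stood at exactly 1 in 11 and 12 members, and 5 and 7 cells missed the rule with exactly 2. The sum of Ear2, Ace and Treml4 was exactly 1 in 3 and 7 members, while 33 and 17 cells had none of the 3 and met the other conditions. These excluded cells held a median of 3 and 3 of the 9 markers. Spp1 was at 1 in 0 and 2 members, and 3 and 3 cells were left out with 2 or more.

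The 3 genes that chose the cells were not held evenly in the 2 libraries, a description since the rule used them. All of Ear2, Ace and Treml4 were found in 25 of 49 patrolling monocytes with h219-LLG and 27 of 66 in control. Ace was the only one of the 3 in 4 and 14 cells, and Ear2 the only one in 6 and 3. Ear2 ranged from 0 to 17 UMIs a cell with a median of 4 with h219-LLG, and from 0 to 18 with a median of 1 in control. Ace ranged from 0 to 15 with a median of 2 with h219-LLG, and from 0 to 12 with a median of 4 in control. Treml4 had a median of 1 UMI in each library. Summed over the cells and scaled to a fixed total of the class's UMIs (CPM), Ear2 was at 733 and 322, Treml4 at 342 and 163, Ace at 353 and 485 and Csf1r at 782 and 652 CPM with h219-LLG and in control. The ranges of all 4 genes overlapped between the libraries. The Ear family holds near-identical copies, whose reads the counting could split, and of the paralogs Ear1, Ear6, Ear10 and Ear14 each was at 0 UMIs.

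Patrolling monocytes made up a smaller share of the sorted cells with h219-LLG than in control, while classical monocytes made up a larger one. The share of patrolling monocytes was 0.659% (49 of 7433, exact 95% interval 0.488 to 0.871) with h219-LLG and 1.18% (66 of 5607, 0.912 to 1.50) in control, a ratio of 0.560 (0.388 to 0.809). Classical monocytes, counted as cells with at least 2 UMIs of Csf1r, 4 of Ly6c2 and 1 of Ccr2, at most 1 of Spp1 and 0 of Ear2, Ace, Treml4, C1qa, C1qb, Arg1, Cd3e and Cd79a, made up 1.17% and 0.339%, a ratio of 3.45 (2.11 to 5.67). C1q macrophages, with at least 2 UMIs of Csf1r and 2 of C1qa and C1qb together, made up 1.35% and 0.464%, a ratio of 2.90 (1.89 to 4.46). Of patrolling and classical monocytes together, patrolling monocytes were 36.0% (28.0 to 44.7) with h219-LLG and 77.6% (67.3 to 86.0) in control. The rule rests on UMI counts, which depend on a cell's depth. With every cell thinned to 2000 UMIs before the rule was applied, 28 of 7094 and 27 of 5366 cells met it, and the ratio of shares was 0.784 with an interval of 0.463 to 1.33 that holds 1. As a share of cells with at least 2 UMIs of Csf1r, the ratio was 0.383 (0.271 to 0.540).

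**Figure D2:**
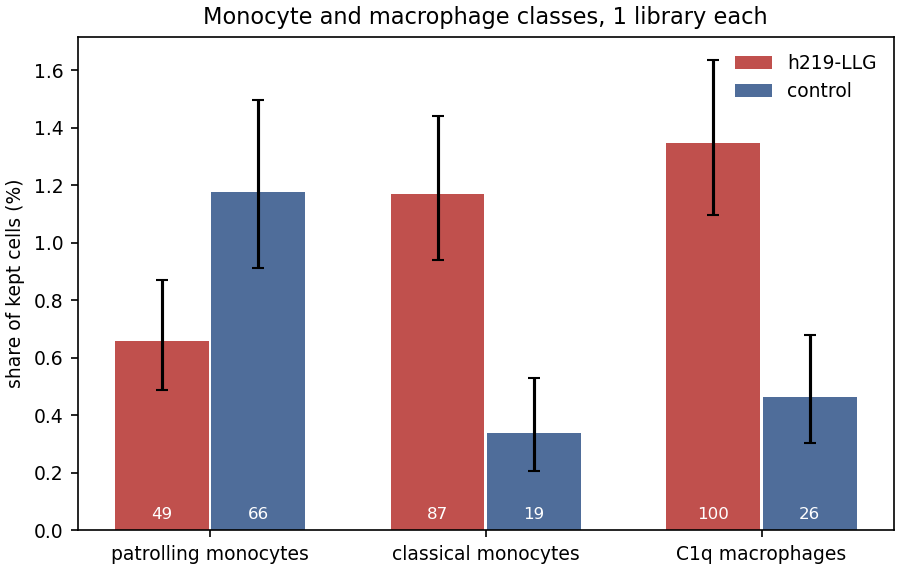
Share of kept cells (%) that were patrolling monocytes, classical monocytes or C1q macrophages in each library, with exact 95% intervals for counting error as error bars and the number of cells written in each bar. Patrolling monocytes were 0.659% with h219-LLG and 1.18% in control, and both other classes were higher with h219-LLG.

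Ly6c2 itself was spread differently in the 2 libraries. Among cells that met every condition but the one on Ly6c2, 49 of 122 (40.2%, 31.4 to 49.4) held at most 1 UMI of Ly6c2 with h219-LLG and 66 of 112 (58.9%, 49.2 to 68.1) in control. The cells left out by it, 73 with h219-LLG and 46 in control, held 2 or more UMIs of Ly6c2 beside Ear2, Ace or Treml4, and a median of 5 and 6 of the 9 markers. The rule used these genes, so the values describe how the rule divided the cells.

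**Figure D3:**
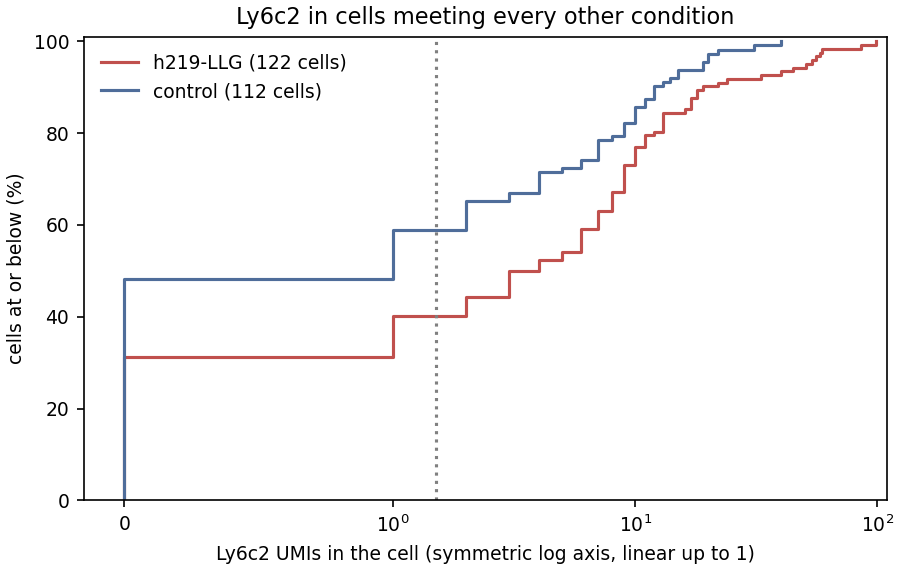
Cumulative share of cells (%) by their number of Ly6c2 UMIs (symmetric log axis), among the 122 cells with h219-LLG and 112 cells in control that met every condition but that on Ly6c2. The dotted line marks the limit of the rule, with 40.2% of the h219-LLG cells and 58.9% of the control cells to its left.

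The patrolling monocytes held few transcripts of mast cells, basophils, eosinophils, melanoma or B and plasma cells, while markers of macrophages were common in them. All 5 mast cell and basophil markers were at 0 UMIs in both libraries, the 5 eosinophil markers summed to 0 and 1 UMIs, the 5 melanoma markers to 1 and 5 and the 4 B and plasma cell markers in the gene list to 4 and 7. The 8 markers of conventional dendritic cells ranged from 0 to 2 UMIs a cell with h219-LLG and from 0 to 86 in control, where 1 cell held 10 or more, and Clec9a and Xcr1 were at 0 in both libraries. The 7 neutrophil markers ranged from 0 to 130 UMIs a cell with h219-LLG and from 0 to 7 in control, with Ly6g at 0 in both, and the 6 markers of T and NK cells from 0 to 11 and from 0 to 76. These single cells carried whole genes: S100a9 had 68 UMIs with h219-LLG, all in 1 cell, and Gzma and Serpinb6b had 68 and 63 UMIs, in 2 control cells each and in 0 cells with h219-LLG. Gzma encodes a granzyme of cytotoxic lymphocytes. The 6 markers of plasmacytoid dendritic cells summed to 67 and 104 UMIs, in 29 and 42 cells. Siglech, Ccr9, Cox6a2 and Klk1 were at 0, so that all of these UMIs came from 2 genes. The 4 of erythroid cells and platelets summed to 11 and 21. The 7 of alveolar or tissue macrophages summed to 203 and 392, and 7 and 13 cells held 10 or more. Siglecf, Marco, Ear1, Timd4 and Vsig4 were at 0, so that these UMIs too came from 2 genes. The 7 macrophage markers outside the rule had a median of 24 and 14 UMIs a cell, with 10 or more in 37 of 49 and 38 of 66 cells. Of the 1482 and 1325 UMIs of 7 macrophage markers outside the rule, 1438 and 1241 were Apoe, in 47 of 49 and 58 of 66 cells. Without the cells with 10 or more UMIs of conventional dendritic, neutrophil, T and NK or B and plasma markers, 46 and 64 cells remained and the ratio of their shares was 0.542. The plasmacytoid, macrophage and alveolar or tissue macrophage markers were not part of that limit.

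Class II MHC divided the patrolling monocytes. H2-Ab1, the beta chain of I-A, was at 0 in 30 of 49 cells with h219-LLG and 43 of 66 in control, while 10 cells (20.4%) and 16 cells (24.2%) held 5 or more UMIs and 97.0% and 98.2% of all its UMIs. The cells with 5 or more held a median of 5.5 and 5 of the 9 markers, against 8 and 7 in the cells at 0, although they were deeper, with medians of 10245 and 11096 UMIs against 5825 and 8297. Flt3 was found in 1 and 0 of the cells with 5 or more, and Cd209a, another dendritic cell marker, in 1 and 1. Of the choosing genes, Ace was found in 9 of 10 and 14 of 16, Ear2 in 7 and 9 and Treml4 in 4 and 7. In the cells at 0, Ace was found in 19 of 30 and 39 of 43, Ear2 in 26 and 29 and Treml4 in 24 and 25. Between the libraries H2-Ab1, H2-Aa and Cd74 had ratios of 0.910 (0.808 to 1.02), 1.11 (0.989 to 1.23) and 1.08 (0.994 to 1.17), and these moved with the limits of the rule. With a sum of Ear2, Ace and Treml4 of at least 2, the ratio of H2-Ab1 was 1.20 (1.06 to 1.36), the ratio of H2-Aa 1.35 (1.20 to 1.51) and the ratio of Cd74 1.22 (1.12 to 1.32). With Ly6c2 at 0 they were 0.741 (0.637 to 0.860), 0.915 (0.796 to 1.05) and 0.884 (0.801 to 0.976), so that no direction can be given.

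Against classical monocytes of the same library, patrolling monocytes held a distinct set of transcripts in both libraries. Of 4934 genes with at least 50 UMIs over both classes and libraries, 187 (3.79%) were at least 2-fold higher in each library and 181 (3.67%) at least 2-fold lower. Among 25 genes measured of a list of the patrolling program outside the rule, 20 were higher and 0 lower, with median log2 ratios of 2.94 and 2.67 beside -0.01 and -0.01 over all genes (with 0.5 UMIs added). The classes were chosen by genes of these programs, so genes that vary with them had to differ, and this is a description. Fabp4, a fatty acid carrier, had 92 and 87 UMIs in patrolling monocytes and 0 and 0 in classical monocytes, and was at least 76.5-fold and 11.8-fold higher, taking 3 UMIs in the classical class as the floor. Cd300e had 81 and 75 UMIs against 0 and 0, at least 67.3-fold and 10.2-fold higher. The fatty acid and thrombospondin receptor Cd36 had 113 UMIs against 2 with h219-LLG and 246 against 0 in control. Adgre4 was at 451 against 15.2 CPM with h219-LLG, a ratio of 29.6 (17.1 to 55.3), and at 224 against 7.84 in control, a ratio of 28.6 (7.77 to 238). Spn was higher with ratios of 8.42 (5.80 to 12.5) and 7.59 (3.58 to 19.2).

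Of 20 monocyte transcription factors and survival genes measured 6 were higher and 0 lower, and of 17 crawling and adhesion genes 5 were higher (Cxcr4, Itgal, Itgax, S1pr5 and Spn) and 2 lower (the chemokine receptor Ccr1 and the integrin chain Itgb7). The anti-apoptotic genes Bcl2a1d and Bcl2a1b were higher, at 377 against 17.4 and 481 against 26.1 CPM with h219-LLG, though these are near-identical copies whose reads the counting could split. The integrin chain Itgax was at 122 against 15.2 CPM with h219-LLG and 154 against 7.84 in control. S1pr5, a sphingosine receptor needed for monocytes to leave the bone marrow, was at 54.3 against 5.45 and 44.9 against 3.92 CPM. Lair1 had 44 UMIs in 25 of 49 patrolling monocytes against 33 UMIs in classical monocytes with h219-LLG, a ratio of 3.32 (2.07 to 5.39), and 122 in 44 of 66 against 4 in control, a ratio of 12.5 (4.74 to 46.5). Only Lair1 and Pilra were higher among 14 genes measured of inhibitory receptors and their phosphatases. Cd274, which encodes PD-L1, had 55 UMIs against 15 with h219-LLG and 45 against 0 in control.

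Genes of the classical program were lower, as was part of the interferon response. Of 15 genes measured of the classical monocyte program 10 were lower and 0 higher, of which Ccr2 was used to choose the classical cells. F13a1, a coagulation factor subunit, was lower with ratios of 0.154 (0.109 to 0.213) and 0.148 (0.108 to 0.199). Prtn3, a granule protease of myeloid progenitors, had 1 UMI against 195 with h219-LLG and 9 against 34 in control, and Ctsg, cathepsin G, had 0 against 49 and 0 against 1. Of 26 type I interferon-stimulated genes measured, 0 were higher and 7 were lower, among them Ifit2, with 4 UMIs against 82 and 0 against 1. The control class of 19 cells gives Ctsg and Ifit2 too few UMIs there for the ratio to be told from 1.

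**Figure D4:**
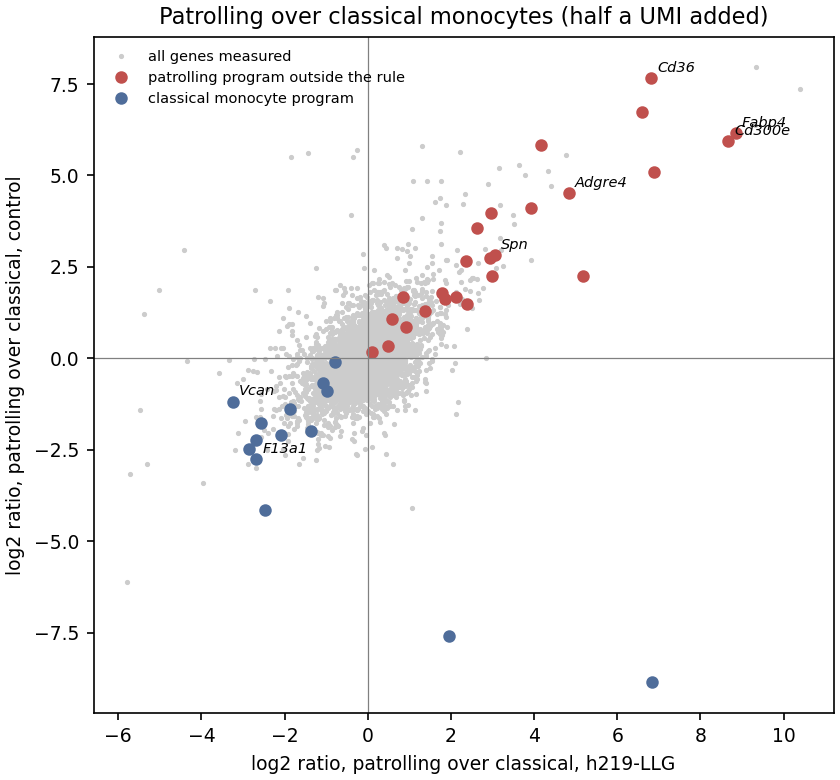
Log2 ratio of CPM in patrolling over classical monocytes, h219-LLG on the x axis and control on the y axis, with 0.5 UMIs added to each sum, for 4934 genes (grey), the patrolling program outside the rule (red) and the classical program without Ly6c2 and Ccr2 (blue). Red points lay above 0 in both libraries and blue points below 0, but for the 2 at the lower right, S100a8 and S100a9, whose 22 and 68 UMIs in h219-LLG patrolling monocytes came from 2 cells and 1 cell.

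Between h219-LLG and control, transcripts of the patrolling program leaned higher in patrolling monocytes with h219-LLG and those of the classical program lower. Of 2928 genes with at least 50 UMIs over both libraries, 53 (1.81%) were at least 2-fold higher with h219-LLG with an interval above 1, and 86 (2.94%) at least 2-fold lower with an interval below 1. In 5 and 24 of them a single cell held over 25% of a library's UMIs. With every cell thinned to 2000 UMIs 10 and 12 genes were called, of which 3 and 5 were among the 53 and 86. The median log2 ratio of all genes was -0.00, and the interval left out 1 in 276 higher genes (9.43%) and 309 lower genes (10.6%). Of 25 genes measured of the patrolling program outside the rule, 2 were at least 2-fold higher and 0 at least 2-fold lower. The median of the list was 0.34, 20 ratios were above 1 and the interval left out 1 in 13 higher and 2 lower genes.

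Adgre4 had 166 UMIs in 43 of 49 cells with h219-LLG and 140 UMIs in 44 of 66 cells in control. It ranged from 0 to 17 UMIs a cell with a median of 3 with h219-LLG and from 0 to 13 with a median of 1 in control, and its ratio was 2.01 (1.60 to 2.54). Slc12a2, a sodium, potassium and chloride cotransporter, was higher at 193 against 65.7 CPM, a ratio of 2.94 (1.97 to 4.42), and Cd300e at 220 against 120 CPM, a ratio of 1.83 (1.32 to 2.54). Itgal, Spn, Cx3cr1 and Pou2f2 had ratios of 1.60, 1.63, 1.70 and 1.58, each with an interval above 1. After thinning to 2000 UMIs the ratio of Spn was 1.13, the ratio of Cx3cr1 1.43 and the ratio of Pou2f2 1.41, with intervals that held 1. In cells with at least 4 of the 9 markers, which include these genes, Adgre4 had a ratio of 1.83 (1.45 to 2.31), below 2-fold. Cd300e, Itgal, Spn, Cx3cr1 and Pou2f2 had 1.66, 1.51, 1.52, 1.57 and 1.42 in those cells, each with an interval above 1. In classical monocytes Cx3cr1 and Pou2f2 were higher with h219-LLG too, with ratios of 3.10 (1.72 to 6.15) and 1.58 (1.03 to 2.52), while Itgal had 0.856 (0.615 to 1.21) and Spn 1.47 (0.646 to 3.90). Nr4a1 was at 614 and 721 CPM, a ratio of 0.851 with an interval of 0.722 to 1.001. With at least 4 of the 9 markers the ratio of Nr4a1 was 0.788 (0.668 to 0.927), and with Ly6c2 at 0 it was 1.01 (0.841 to 1.20). Klf2, a factor that holds leukocytes in quiescence, went the other way with 116 and 336 UMIs, a ratio of 0.585 (0.470 to 0.725), as did Cd36, with a ratio of 0.779 (0.618 to 0.977), although with Ly6c2 at 0 the ratio of Cd36 was 0.902 (0.705 to 1.15). The cells of the 2 libraries overlapped in range for each of these genes.

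Of 12 genes measured of the classical program 1 was at least 2-fold higher, S100a9 in its 1 cell, and 2 at least 2-fold lower, with a list median of -0.39. Of the 12 ratios 5 were above 1 and 7 below, and the interval left out 1 in 1 higher and 6 lower genes. Cd14, the coreceptor for lipopolysaccharide, had 98 UMIs in 24 of 49 cells with h219-LLG and 421 in 47 of 66 in control, a ratio of 0.395 (0.313 to 0.493). Vcan, the proteoglycan versican, had 11 UMIs in 6 cells and 112 in 14 cells, of which 60 lay in 3 cells, a ratio of 0.167 (0.0808 to 0.310). After thinning the ratio of Vcan was 0.0691 (0.00167 to 0.432). Plac8 was at 2365 and 3859 CPM, a ratio of 0.613 (0.567 to 0.663). Lgals3, a galectin of macrophages from the tumor macrophage list, followed with 394 and 1225 UMIs, a ratio of 0.545 (0.486 to 0.611), and Tgfbi, an adhesion protein induced by TGF-beta, with 122 and 541, a ratio of 0.382 (0.311 to 0.466). Anxa1, which encodes annexin A1, had 27 and 136 UMIs, a ratio of 0.337 (0.214 to 0.511). The thinned ratio of Anxa1 was 0.395, with an interval of 0.130 to 1.01 that holds 1. Cd14 and Lgals3 were lower with h219-LLG in classical monocytes too, at 561 against 1078 and 2121 against 2941 CPM. Vcan had a ratio of 0.721 (0.573 to 0.913) in classical monocytes and Plac8 0.985 (0.920 to 1.06).

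Heat shock genes were lower with h219-LLG. All 11 measured had a ratio below 1, the interval left out 1 in 10, and 3 were at least 2-fold lower, with a list median of -0.75. Hsph1, a cochaperone of HSP70, had 10 and 50 UMIs, a ratio of 0.339 (0.153 to 0.676), and Dnajb1 had 22 and 90, a ratio of 0.414 (0.247 to 0.666). Hspa1a, the inducible HSP70, had 92 UMIs in 17 cells and 403 in 27 cells, but 242 of the 403 lay in 3 control cells, and without doublet-scored cells the ratio of Hspa1a moved from 0.387 (0.305 to 0.486) to 0.672 (0.517 to 0.866). With Ly6c2 at 0 the ratio of Hsph1 was 0.640, with an interval of 0.263 to 1.42 that holds 1. The constitutive Hspa8, named after its values were seen, was found in 48 of 49 and 66 of 66 cells, at 1488 and 2436 CPM, a ratio of 0.611 (0.553 to 0.674). Hspa1a and Hspa8 were lower with h219-LLG in cells that are not monocytes too: Hspa1a was at 27.4 and 200 CPM in B cells and 16.6 and 81.7 in T cells, and Hspa8 at 660 and 1018 in B cells and 993 and 1548 in T cells. In classical monocytes Hspa1a, Hsph1, Dnajb1 and Hspa8 had ratios of 0.0819, 0.0600, 0.546 and 0.853, each with an interval below 1. Hsp90aa1, Hsp90ab1, Hspd1 and Hspe1 had ratios of 1.02, 1.08, 1.27 and 0.843 there, with intervals that held 1. Whether the state of the cells at the sort had a part was not tested.

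Genes of class I MHC presentation leaned higher. All 12 measured had a ratio above 1, the interval left out 1 in 7, and 1 was at least 2-fold higher, with a list median of 0.36. H2-Q7, a nonclassical class I heavy chain with close paralogs whose reads could be split, had 90 UMIs in 34 cells and 70 in 30 cells, a ratio of 2.18 (1.58 to 3.02). H2-K1, likewise named after its values were seen, was at 1942 and 1362 CPM, a ratio of 1.43 (1.29 to 1.58), and Psme2, a proteasome activator subunit, at 280 and 167 CPM, a ratio of 1.68 (1.27 to 2.23). Psme2 had a ratio of 1.60 after thinning to 2000 UMIs, with an interval of 0.907 to 2.86 that holds 1. The thinned intervals of H2-Q7 and H2-K1 stayed above 1. In classical monocytes H2-Q7 had 73 UMIs with h219-LLG and 1 in control. H2-K1 had a ratio of 1.28 (1.09 to 1.51) there and Psme2 1.18 (0.879 to 1.61). Of 11 type I interferon-stimulated genes measured, 10 had a ratio above 1, 5 of them with an interval above 1, and 0 were at least 2-fold higher or lower, with a list median of 0.31. Parp14 was highest, at 130 and 65.7 CPM, a ratio of 1.98 (1.28 to 3.09), and the strongly induced Ifit1, Ifit2 and Ifit3 had 7 or fewer UMIs in each library. The thinned ratio of Parp14 was 1.38, with an interval of 0.591 to 3.24 that holds 1. In classical monocytes the ratio of Parp14 was 3.77 (1.92 to 8.43). Ifit1, Ifit2 and Ifit3 had 97, 82 and 76 UMIs there with h219-LLG and 2, 1 and 0 in control. Of 12 interferon-gamma induced GTPases 0 reached 50 UMIs.

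**Figure D5:**
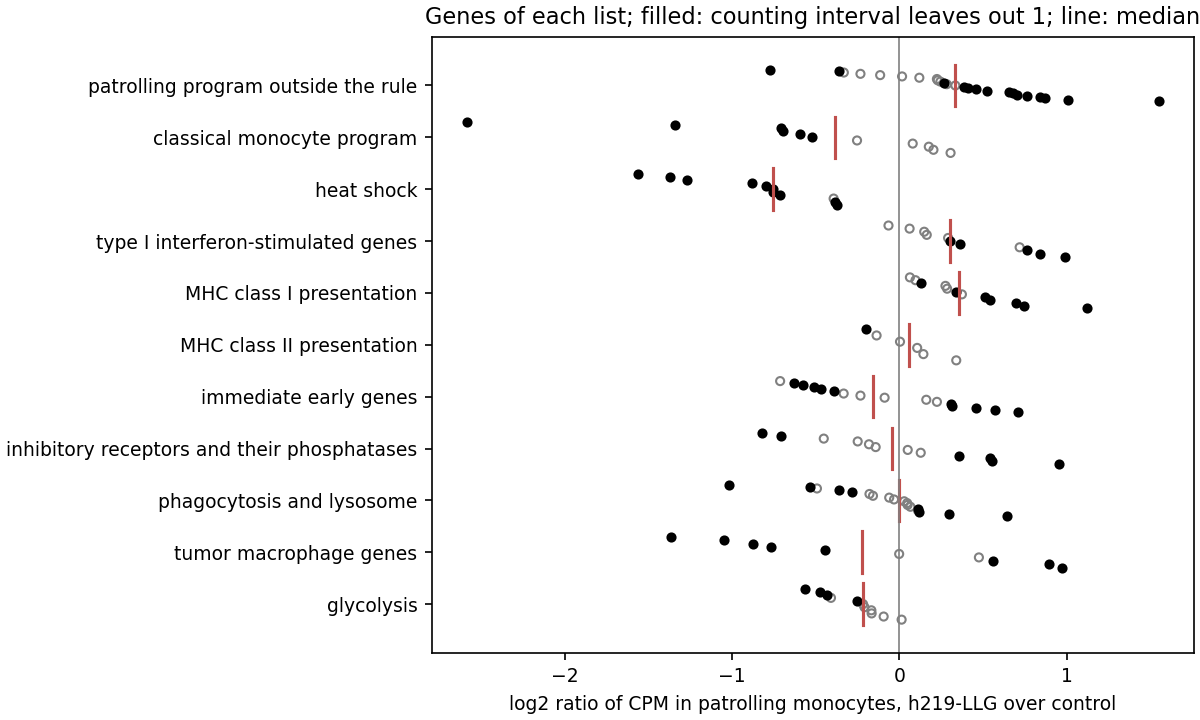
Log2 ratio of CPM in patrolling monocytes, h219-LLG over control, for each gene with at least 50 UMIs in 11 gene lists (rows). Filled points have a counting interval that leaves out 1 and red lines mark list medians, which were -0.75 for heat shock, -0.39 for the classical program (S100a9, with 0 UMIs in control, has no point) and 0.34 for the patrolling program.

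Of 16 immediate early genes measured 0 were 2-fold changed in either direction, with 5 higher and 5 lower by their interval and a median of -0.16. Fos was at 1651 and 1112 CPM and the phosphatase Dusp1 at 1347 and 825, ratios of 1.49 (1.33 to 1.66) and 1.63 (1.44 to 1.85), while Fosb had a ratio of 0.645 (0.503 to 0.821). With Ly6c2 at 0 the ratio of Fos was 1.10 (0.959 to 1.27). Fosb had a ratio of 0.680 after thinning, with an interval of 0.420 to 1.08 that holds 1. The thinned intervals of Fos and Dusp1 stayed above 1. Fos, Dusp1 and Fosb moved the same way in classical monocytes. Their ratios there were 1.59 (1.41 to 1.80), 1.46 (1.23 to 1.76) and 0.596 (0.473 to 0.753). In B cells Fos was at 560 and 289 CPM. Among 12 inhibitory receptors and phosphatases measured the median was -0.05, with 0 genes changed 2-fold. Lair1 had a ratio of 0.611 (0.423 to 0.870), and 26 of its 122 control UMIs lay in 1 cell. After thinning the ratio of Lair1 was 0.346 (0.146 to 0.732). Clec12a, an inhibitory lectin receptor, was higher with 56 and 49 UMIs, a ratio of 1.94 (1.30 to 2.90). Among adhesion and homing genes the chemokine receptor Cxcr4, which holds cells in the bone marrow, had 78 and 292 UMIs, a ratio of 0.453 (0.348 to 0.583), and the integrin chain Itgam had 99 and 284, a ratio of 0.591 (0.465 to 0.745). Cxcr4 was lower in B cells also, at 295 and 486 CPM. Its ratio in classical monocytes was 0.571 (0.378 to 0.876), while that of Itgam was 1.18 (0.916 to 1.54).

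Apoe, an apolipoprotein, had 1438 and 1241 UMIs, a ratio of 1.96 (1.82 to 2.12), with a median of 24 UMIs a cell with h219-LLG and 13 in control. It was also higher with h219-LLG in classical monocytes, at 1324 and 404 CPM, and was found in 38.9% and 39.9% of B cells, at 292 and 347 CPM. Lipa, the lysosomal acid lipase, had 122 and 75 UMIs, a ratio of 2.76 (2.05 to 3.73). Of 18 phagocytosis and lysosome genes measured 0 were 2-fold higher and 1 was lower, the cathepsin Ctsl, with a ratio of 0.494 (0.329 to 0.726) and a single cell holding over 25% of its h219-LLG UMIs. With Ly6c2 at 0 the ratio of Ctsl was 0.281 (0.151 to 0.487). Ctsl was lower in classical monocytes too, with a ratio of 0.564 (0.416 to 0.771). Of 19 monocyte transcription factors and survival genes measured, 9 ratios were above 1 and 10 below, the interval left out 1 in 3 higher and 6 lower genes, and the median was -0.05. The highest of them was Bcl2a1d with 139 and 96 UMIs, a ratio of 2.45 (1.88 to 3.22). Cd274 had 55 and 45 UMIs in 24 of 49 and 17 of 66 cells, a ratio of 2.07 (1.37 to 3.14).

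Among all genes, those with the highest ratios that a single cell or lymphocytes did not carry were Arl5a, Tle3, Ccnd2, Slc12a2, Lipa, Ifitm6, Dnajc2, Cyfip2, Smc6 and Fam76a, with ratios from 2.47 to 3.39. Ccnd2, the cyclin D2 gene, had 47 and 27 UMIs, a ratio of 2.95 (1.80 to 4.93), and Ifitm6, an interferon-induced membrane protein, 118 and 75, a ratio of 2.67 (1.98 to 3.61). The lowest were Slc9a3r1, Anxa1, Hsph1, Epn1, Gabarapl1, Me2, Braf, Ccdc174, Tgfbi and Gadd45a, with ratios from 0.325 to 0.385. Most of the 20 genes had fewer than 100 UMIs over both libraries, where the interval of a single ratio is wide. After thinning to 2000 UMIs the interval held 1 in 12 of the 20, among them Braf and Gabarapl1, where the ratio of Braf was 0.988 and the ratio of Gabarapl1 0.922, and it left out 1 for Arl5a, Slc12a2, Lipa, Ifitm6, Smc6, Fam76a, Ccdc174 and Tgfbi. The ratio of Ccnd2 was then 1.56, the ratio of Cyfip2 1.56 and the ratio of Ccdc174 0.0988.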

How the data were processed

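Single-cell 3' RNA libraries of sorted CD45+ tumor cells were counted by the authors with Cell Ranger 5.0.0 on mm10, and the deposited values were raw UMI counts for 27998 genes, with total counts of 48834592 (h219-LLG) and 40339654 (control). Barcodes with at least 500 UMIs, 200 genes and under 10% mitochondrial UMIs were kept, and no doublets were removed. Removing the highest Scrublet scores (7.05% and 4.90% of cells) was an alternative. UMIs were summed per class and library. Shares had exact Clopper-Pearson intervals, CPM exact Poisson intervals and CPM ratios exact binomial intervals. Ratios of shares had approximate intervals, from a normal distribution on the log scale. All intervals were at 95%. A gene with at least 50 UMIs was called at a ratio of at least 2, or at most 0.5, with an interval without 1. Against classical monocytes the ratio alone had to pass, in both libraries, without a condition on the interval. The ratio code was tested on simulated data. Members, lists and rules were chosen with earlier results of these data known. The text names markers, Lair1, the 3 highest and 3 lowest ratios of each list and the 10 highest and lowest of all genes, leaving out genes led by 1 cell or 5 times higher in lymphocytes, and the highest and lowest against classical monocytes. Of the gene lists, Itgam and Gbp6 had 2 identifiers each, of which the first was used. Python 3.11.15, numpy 2.4.6, scipy 1.17.1, scanpy 1.11.5 and matplotlib 3.10.9 were used.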

Additional observations from a re-analysis of the deposited data

Results flagged for a closer look

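The shares of patrolling and classical monocytes differed between the antibodies in opposite directions, with ratios of h219-LLG over control of 0.560 (0.388 to 0.809) and 3.45 (2.11 to 5.67). The difference between these ratios was not tested, since each antibody had 1 library.

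Among barcodes outside the cell filter, 8 in control met the marker conditions with 10% or more mitochondrial UMIs and a median of 2519 UMIs, against 1 with h219-LLG. Without a mitochondrial limit the share ratio was 0.468 (0.327 to 0.669).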

How the results depend on the processing

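The share ratio of patrolling monocytes stayed below 1 under all 15 alternatives, from 0.383 with cells of at least 2 Csf1r UMIs as the denominator to 0.784 after thinning to 2000 UMIs, where its interval held 1. Among the 15, leaving out cells over 3 times the median UMIs removed no cell, so it repeated the ratio of 0.560. Genes called higher and lower with h219-LLG numbered 20 and 24 at a minimum of 100 UMIs, 167 and 167 at a minimum of 20, and 10 and 12 after thinning. Against classical monocytes 123 and 103 genes were called at a minimum of 100 UMIs and 77 and 56 after thinning. Fewer UMIs enter the thinned sums, so that fewer genes reach the minimum. The thinned calls were not only a part of the main ones. Of the 10 and 12 genes called between the antibodies, 3 and 5 were among the 53 and 86. How far the minimum accounts for the lower counts was not tested. Of 696 alternative values of 58 gene ratios 654 lay within the interval of the reported ratio. Part of these had to: the setting without cells over 3 times the median UMIs repeated each gene ratio. Setting the median ratio to 1, or leaving the 50 most abundant genes out of the sum, moved all ratios together and by little. On the other side of 1 lay 9 alternative values of 5 genes. The ratio of Csf1r, whose interval left out 1, crossed it at 0.898 after thinning. The others were those of H2-Ab1, H2-Aa, Cd74 and Nr4a1, whose intervals held 1 to begin with, and the ratio of H2-Ab1 reached 1.20 with a sum of Ear2, Ace and Treml4 of at least 2. The median of monocyte transcription factors and survival genes, a log2 ratio of -0.05, reversed to 0.027 as a mean over cells of CPM, to 0.056 after thinning, to 0.000645 with Ly6c2 at 0 and to 0.014 without cells holding 10 UMIs of other cells' markers. The median of Fc receptors reversed to -0.16 with a sum of Ear2, Ace and Treml4 of at least 2, and the median of glycolysis to 0.031 with at least 4 of the 9 markers. The cause was not tested. The settings on other cells' markers, on 4 of the 9 markers and on genes led by 1 cell were chosen after seeing the data. No paired analysis was possible because each antibody had 1 library, and for the same reason no replicate could be left out.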
